A study of Mus musculus with 10 samples.

Results

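Collagen leaves the cell only after its chains have been hydroxylated, folded into a triple helix and packed for export, and it hardens into fibres only after it has been crosslinked outside the cell. The genes described here are 10 that carry out these steps: the lysyl hydroxylases Plod1, Plod2 and Plod3, the prolyl 4-hydroxylase subunits P4ha1, P4ha2 and P4hb, the collagen chaperone Serpinh1, and the lysyl oxidases Lox, Loxl1 and Loxl2. They were taken by symbol from a table of 33347 genes, and all 10 were found once and passed the filter on low counts. They were measured in bulk RNA of 10 lung samples of wild-type (WT) mice whose lungs had been injured with bleomycin, a drug that breaks DNA and is used to model pulmonary fibrosis. As treatment the mice were injected with bone marrow cells that differed in aldehyde dehydrogenase (ALDH) activity: high (ALDHbr) for 5 samples and low (ALDHdim) for the other 5. The labels give no age, sex, dose or time, and no sample without bleomycin or without cells was analysed here, so every comparison is between the transfer groups. The labels do not tie each sample to its own mouse, and the p-values below therefore reflect only the spread between these samples, which may be technical.

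In the endoplasmic reticulum, lysyl hydroxylases add hydroxyl groups to lysines of collagen, and prolyl 4-hydroxylase, a complex of P4HA and P4HB subunits, adds them to prolines, which keeps the triple helix stable at body temperature. SERPINH1, also called HSP47, binds the folded helix. Lysyl oxidases then oxidise lysines outside the cell and so start the crosslinks between collagen molecules, and in elastin as well. Fibrotic lung is stiff in part because of such crosslinks.

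The libraries held 588063 to 2002947 counts. ALDHbr 2 was the shallowest, and ALDHbr 3 and ALDHbr 5 detected 24722 and 25377 genes against 17044 to 21209 in the other 8. Sftpc, Scgb1a1, Ager and Pecam1, which mark lung epithelium and endothelium, were present in all libraries: the alveolar marker list summed to 25991 to 53680.4 CPM in ALDHbr and 22933 to 43088 CPM in ALDHdim libraries. Levels are given in CPM, a gene's count relative to the size of its library after TMM scaling, a correction for library composition. Reads came from the 3' end of transcripts, so CPM does not scale with transcript length, and levels are compared here between libraries and not between genes. Log2 fold changes run as ALDHbr over ALDHdim and come from edgeR's quasi-likelihood test over 10844 genes, with p-values adjusted by Benjamini-Hochberg and called under 0.05.

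None of the 10 genes was found to differ between ALDHbr and ALDHdim recipients beyond the spread within the groups. With edgeR 0 of 10 passed the threshold, each at an adjusted p of 0.999, against 0% of all genes tested, and 0 of 10 had an unadjusted p under 0.05, against 3.71% of all genes. Estimates were lower in ALDHbr recipients for 8 of the 10 and higher for 2, with a median of −0.070, while 48.1% of all genes had lower estimates and their median was 0.011. This split depended on single libraries. Without ALDHbr 3 alone 4 were lower and 6 higher (median 0.015), and without ALDHbr 5 alone all 10 were lower (median −0.12). The values of the groups overlapped for all 10; in the whole table they did not overlap for 0.535% of genes. In bulk RNA, fewer cells of a type and less RNA per cell cannot be told apart.

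**Figure D1:**
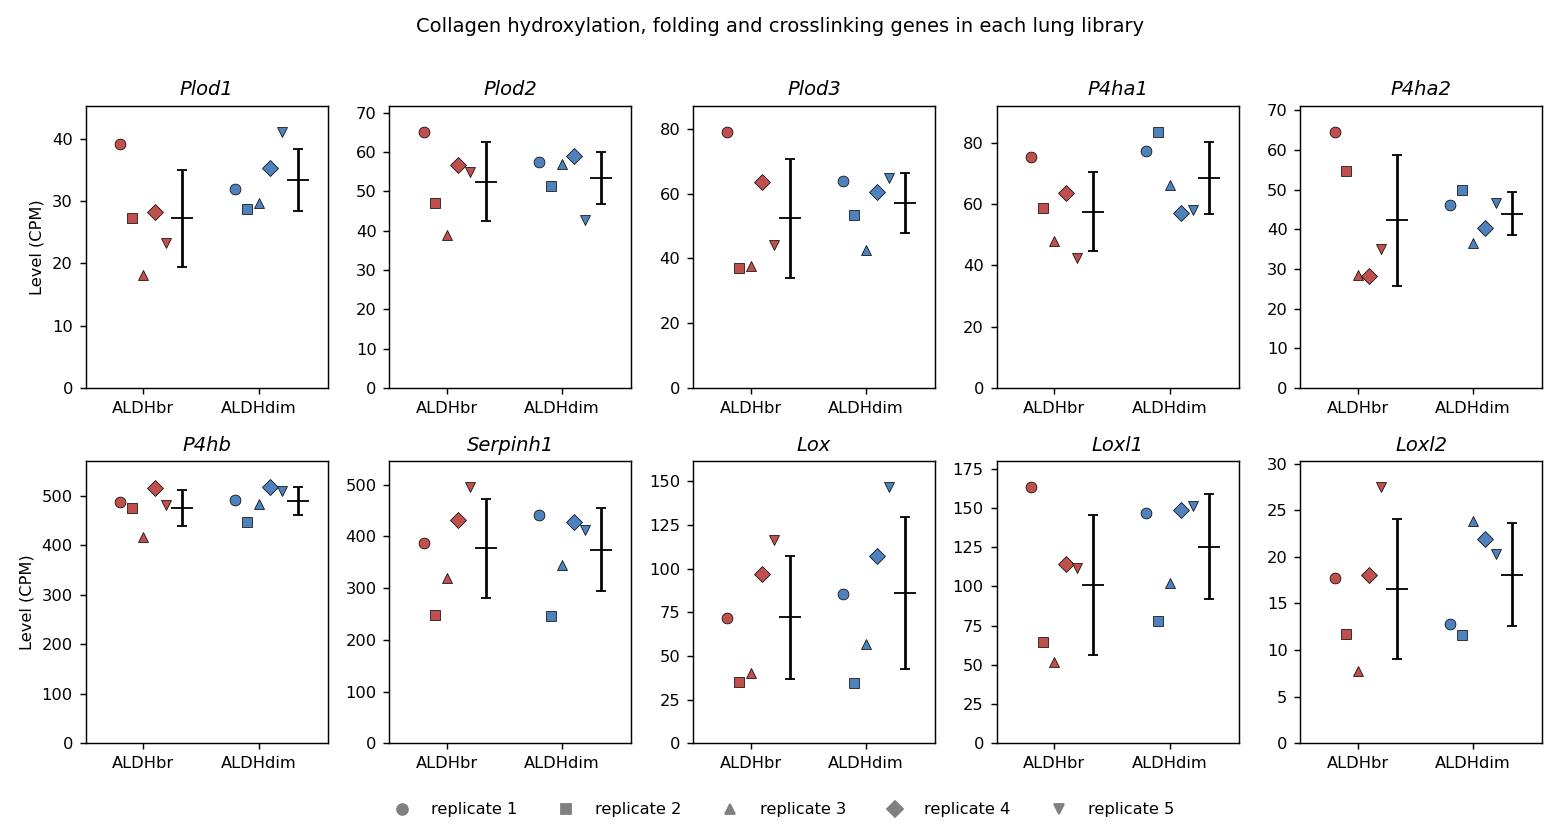
Level in CPM of each of the 10 genes in the 5 ALDHbr libraries (red, left) and the 5 ALDHdim libraries (blue, right); marker shapes give the replicate number, and the bars give the mean ± SD of 5 libraries. The groups overlap in every panel, and P4hb varies least.

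The lysyl hydroxylases differ in where they act: Plod1 modifies lysines within the helix, Plod2 those in the telopeptides at the ends of the chains, which shape the kind of crosslink formed, and Plod3 is also a glycosyltransferase. Plod1 was at 39.3, 27.4, 18.1, 28.3 and 23.3 CPM in ALDHbr libraries 1 to 5, against 31.9, 28.8, 29.8, 35.4 and 41.2 CPM in ALDHdim libraries 1 to 5. The lowest values, ALDHbr 3 and ALDHbr 5, and the highest but one, ALDHbr 1, came from the ALDHbr group. The mean of Plod1 was 27.3 ± 7.82 CPM over the ALDHbr libraries, against 33.4 ± 5.04 CPM over the ALDHdim libraries (SD, n = 5 each; log2 fold change −0.26, SE 0.20). Plod2 was at 65.2, 46.9, 38.8, 56.6 and 55.0 CPM in ALDHbr libraries 1 to 5, against 57.5, 51.5, 57.0, 58.9 and 42.9 CPM in ALDHdim libraries 1 to 5. ALDHbr 1 was highest and ALDHbr 3 lowest, with ALDHdim 5 next to lowest, and the difference was small (log2 fold change 0.0087, SE 0.16). The 95% interval of the fold ran from 0.798 to 1.27. Plod3 was at 79.2, 37.2, 37.5, 63.7 and 44.2 CPM in ALDHbr libraries 1 to 5, against 63.9, 53.5, 42.5, 60.6 and 64.8 CPM in ALDHdim libraries 1 to 5. Here ALDHbr 2 and ALDHbr 3 were lowest and ALDHbr 1 highest, so the ALDHbr libraries enclosed all ALDHdim values (log2 fold change −0.074, SE 0.20). The first 1003 bases of Plod3 overlap the protein-coding gene Znhit1 on the opposite strand, and Plod2, Lox and Loxl2 overlap antisense or unclassified transcripts there. The strand setting of the counting was not stated, so reads of such partners cannot be told apart. The Znhit1 overlap lies at the start of both genes, while reads came from the 3' end of transcripts. What it added to the counts of Plod3 was not tested.

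P4ha1 and P4ha2 encode the catalytic alpha subunits of prolyl 4-hydroxylase, and both are known as genes that hypoxia can induce. P4ha1 was at 75.4, 58.7, 47.9, 63.7 and 42.5 CPM in ALDHbr libraries 1 to 5, against 77.4, 83.7, 66.3, 57.3 and 58.2 CPM in ALDHdim libraries 1 to 5. ALDHdim 2 was highest and ALDHbr 5 lowest. The means were 57.6 ± 13.0 CPM over the ALDHbr libraries, against 68.6 ± 11.7 CPM over the ALDHdim libraries (SD, n = 5 each; log2 fold change −0.24, SE 0.17). The unadjusted edgeR p of 0.180 was the smallest of the 10. P4ha2 was at 64.6, 54.8, 28.5, 28.3 and 35.0 CPM in ALDHbr libraries 1 to 5, against 46.1, 49.9, 36.6, 40.4 and 46.7 CPM in ALDHdim libraries 1 to 5. ALDHbr 1 and ALDHbr 2 lay above all ALDHdim libraries and ALDHbr 3, ALDHbr 4 and ALDHbr 5 below all of them, so the ALDHbr values spread over 2.28-fold and the ALDHdim values over 1.37-fold. The means were 42.2 ± 16.5 CPM over the ALDHbr libraries, against 44.0 ± 5.36 CPM over the ALDHdim libraries (log2 fold change −0.067, SE 0.22).

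P4hb, protein disulfide isomerase, is the beta subunit of the same complex and folds many other proteins of the secretory pathway. P4hb was at 488, 475, 417, 515 and 482 CPM in ALDHbr libraries 1 to 5, against 491, 447, 483, 518 and 511 CPM in ALDHdim libraries 1 to 5. All 10 values lay within 1.24-fold of each other, the narrowest span of the 10 genes, with ALDHbr 3 lowest and ALDHdim 4 highest. Its mean was 476 ± 36.3 CPM over the ALDHbr libraries, against 490.0 ± 27.9 CPM over the ALDHdim libraries (log2 fold change −0.042, SE 0.12), and the 95% interval of the fold was 0.813 to 1.16. Serpinh1 was at 388, 248, 319.5, 433 and 496 CPM in ALDHbr libraries 1 to 5, against 441, 247, 344, 428 and 413 CPM in ALDHdim libraries 1 to 5. ALDHbr 2 and ALDHdim 2 were lowest at nearly the same level and ALDHbr 5 was highest. Its mean was 377 ± 96.4 CPM over the ALDHbr libraries, against 375 ± 80.6 CPM over the ALDHdim libraries (log2 fold change 0.017, SE 0.19), and the 95% interval of the fold ran from 0.765 to 1.34.

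Entries of the RefSeq promoter table on GRCm38.p6 were used for 6 of the 10 genes. None was used for Lox, Loxl1, Loxl2 or Plod2, so the motif counts below say nothing about these genes. That none was used does not mean that the RefSeq table lacks an entry for each of them. The 6 genes are therefore a selection, and their motif counts give no rate for all 10. The 250 bases before the RefSeq start are shown for P4ha1 and P4ha2, because hypoxia can induce them, and for Serpinh1, because it varied apart from them over the libraries. They lie at P4ha1 chr10:59323046-59323295 on the plus strand, P4ha2 chr11:54100674-54100923 on the plus strand and Serpinh1 chr7:99353240-99353489 on the minus strand. The P4ha2 window lies inside the gene as GENCODE places it, from 54100095, since RefSeq starts the gene further downstream. Capitals mark ACGTG and GCGTG, the 2 forms of the core that hypoxia-inducible factors bind, read on either strand (CACGT and CACGC where the other strand holds them).
P4ha1: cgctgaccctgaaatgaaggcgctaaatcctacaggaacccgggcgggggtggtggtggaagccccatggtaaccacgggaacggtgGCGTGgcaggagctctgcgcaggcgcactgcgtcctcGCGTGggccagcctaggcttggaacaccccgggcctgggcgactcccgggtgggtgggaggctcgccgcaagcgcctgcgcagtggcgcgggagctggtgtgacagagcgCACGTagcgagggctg
P4ha2: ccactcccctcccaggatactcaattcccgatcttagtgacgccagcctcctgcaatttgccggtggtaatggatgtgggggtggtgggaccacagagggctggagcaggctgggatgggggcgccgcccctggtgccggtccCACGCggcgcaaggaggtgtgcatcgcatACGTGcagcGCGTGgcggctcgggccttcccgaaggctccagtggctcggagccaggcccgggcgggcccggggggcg
Serpinh1: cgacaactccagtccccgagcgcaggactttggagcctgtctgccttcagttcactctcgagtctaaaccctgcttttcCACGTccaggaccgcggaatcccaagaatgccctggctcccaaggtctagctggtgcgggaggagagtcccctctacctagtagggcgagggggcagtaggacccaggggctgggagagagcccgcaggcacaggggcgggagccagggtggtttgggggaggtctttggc
P4ha1 and P4ha2 each held 1 ACGTG and 2 GCGTG in this window, the ACGTG lying 16 bases before the start of P4ha1 and 78 bases before that of P4ha2, and Serpinh1 held 1 ACGTG and 0 GCGTG. Of the windows not shown, Plod3 held 1 ACGTG and 3 GCGTG, P4hb 1 of each, and Plod1 0 ACGTG and 1 GCGTG. Of the 6 windows, 5 held ACGTG, 5 held GCGTG and all 6 held either, against 16.6%, 28.2% and 38.6% of 32851 windows of the same length in the RefSeq table. The 2 motifs overlapped each other at no place in the 6 windows. These 6 windows are 55.6 to 70.0% G or C, and a match to 5 letters is a description of the sequence, not a bound site.

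The lysyl oxidases varied most. Lox, the founding member, was at 71.6, 35.2, 40.1, 96.8 and 117 CPM in ALDHbr libraries 1 to 5, against 85.2, 34.3, 57.0, 107 and 147 CPM in ALDHdim libraries 1 to 5. ALDHdim 2, ALDHbr 2 and ALDHbr 3 were lowest and ALDHdim 5 highest, a span of 4.28-fold. The means were 72.1 ± 35.3 CPM over the ALDHbr libraries, against 86.0 ± 43.7 CPM over the ALDHdim libraries (SD, n = 5 each; log2 fold change −0.20, SE 0.42). The 95% interval of the fold, 0.454 to 1.68, was the only one of the 10 to reach past 2-fold. Loxl1, which is known for its part in elastic fibres, was at 163, 64.5, 51.7, 114 and 112 CPM in ALDHbr libraries 1 to 5, against 147, 78.2, 102, 149 and 151 CPM in ALDHdim libraries 1 to 5. The same 3 libraries were lowest and ALDHbr 1 was highest. Its mean was 101 ± 44.5 CPM over the ALDHbr libraries, against 125 ± 33.4 CPM over the ALDHdim libraries (log2 fold change −0.26, SE 0.28). Loxl2, which crosslinks collagen IV of basement membranes, was at 17.7, 11.7, 7.76, 18.1 and 27.5 CPM in ALDHbr libraries 1 to 5, against 12.8, 11.6, 23.8, 21.9 and 20.3 CPM in ALDHdim libraries 1 to 5. ALDHbr 3 was lowest and ALDHbr 5 highest. With 6 to 37 counts per library, sampling alone gives this gene an error of about 25.4%, and its group difference was −0.022 (SE 0.30).

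**Figure D2:**
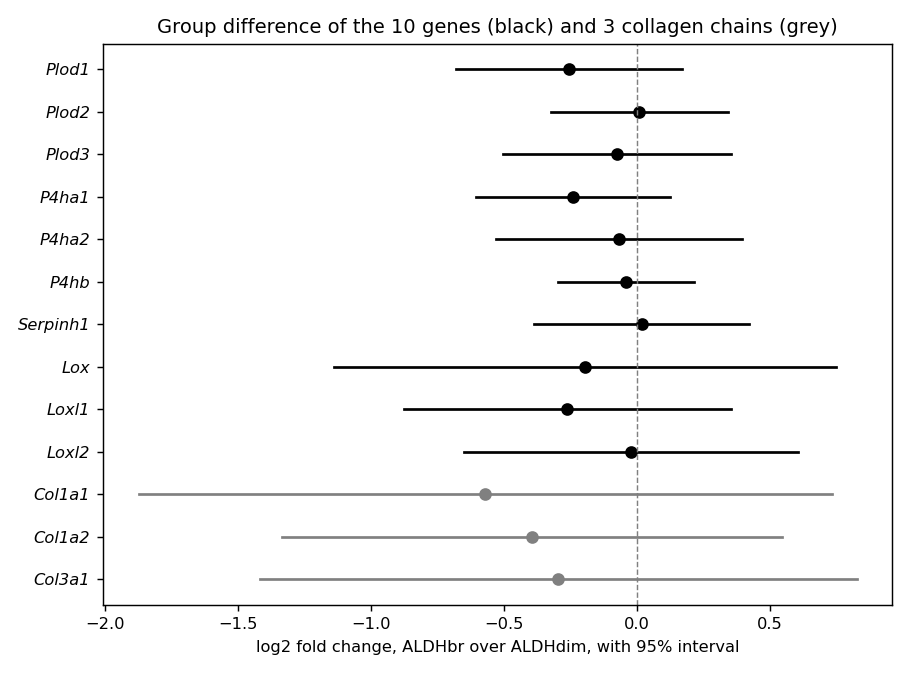
Log2 fold change, ALDHbr over ALDHdim, with its 95% interval from edgeR for the 10 genes (black) and for the collagen chains Col1a1, Col1a2 and Col3a1 (grey). Every interval spans 0; those of P4hb and Plod2 are narrow and those of Lox and the collagen chains wide.

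For 9 of the 10 genes both bounds of the 95% interval stayed inside 2-fold, and for 5 they stayed inside 1.5-fold (P4hb, Plod2, Serpinh1, Plod3 and P4ha2). Leaving out ALDHbr 3 and ALDHbr 5, the libraries with the most genes detected, gave 0 calls again. It turned the estimates of P4ha2, Plod3 and P4hb to 0.15, 0.14 and 0.012, and that of Serpinh1 to −0.059. It brought those of Loxl1, Plod1 and P4ha1 close to 0, at −0.083, −0.039 and −0.039. Without ALDHbr 1 the difference of Loxl1 was −0.51, that of Plod1 −0.46 and that of P4ha1 −0.38, none past the threshold. In that fit 2 of the 10 genes had an unadjusted edgeR p under 0.05, against 10.4% of all genes.

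Within each enzyme family the balance between members was not found to differ between the groups either. A family here holds only those of its genes that are among the 10. The alpha subunit P4ha3 and the lysyl oxidases Loxl3 and Loxl4 are therefore not counted in it. Plod2 took 40.3 ± 3.63% of the family's counts in ALDHbr libraries and 37.4 ± 5.49% in ALDHdim libraries (SD, n = 5 each; exact permutation p = 0.341, adjusted p = 0.603 over 3 shares). The highest share, 44.9% in ALDHbr 5, rested on 66 of 147 counts (95% Wilson interval 37.1 to 53.0%), and the lowest, 28.8% in ALDHdim 5, on 78 of 271 (23.7 to 34.4%). P4ha2 took 41.5 ± 7.31% of the family's counts in ALDHbr libraries and 39.2 ± 3.64% in ALDHdim libraries (SD, n = 5 each; exact permutation p = 0.532, adjusted p = 0.603 over 3 shares) when set against P4ha1. The highest share, 48.3% in ALDHbr 2, rested on 28 of 58 counts (95% Wilson interval 35.9 to 60.8%), and the lowest, 30.8% in ALDHbr 4, on 36 of 117 (23.1 to 39.6%). Loxl1 took 53.6 ± 8.01% of the family's counts in ALDHbr libraries and 56.0 ± 5.98% in ALDHdim libraries (SD, n = 5 each; exact permutation p = 0.603, adjusted p = 0.603 over 3 shares), the rest being Lox and Loxl2. The highest share, 64.7% in ALDHbr 1, rested on 258 of 399 counts (95% Wilson interval 59.9 to 69.2%), and the lowest, 43.6% in ALDHbr 5, on 134 of 307 (38.2 to 49.2%). The possible assignments of 10 libraries to groups of 5 allow no p below 0.00794. The intervals cover counting error only, and a p above the threshold does not show equal shares.

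**Figure D3:**
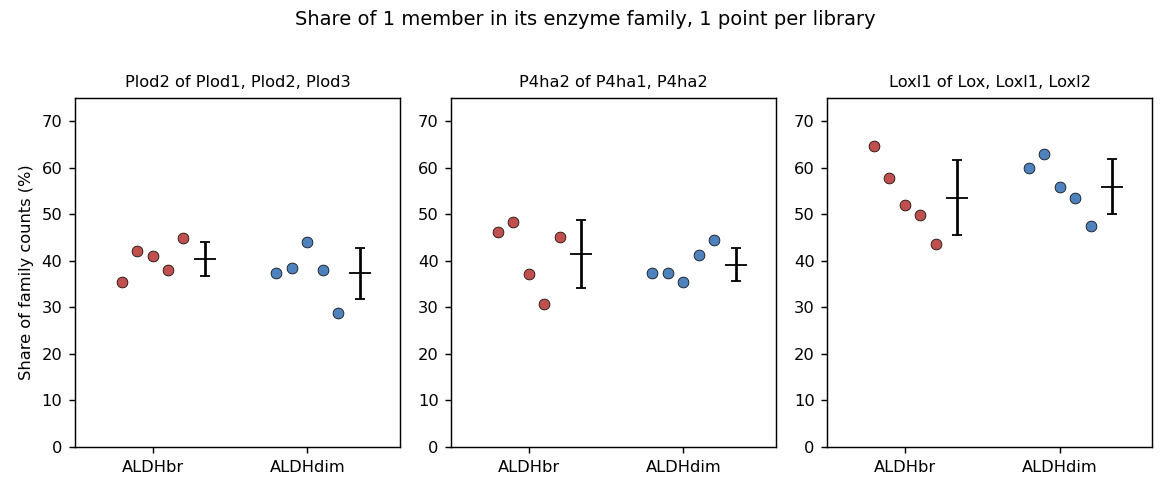
Share of the family's counts taken by Plod2, P4ha2 and Loxl1 in each ALDHbr (red, left) and ALDHdim (blue, right) library, in percent; bars give the mean ± SD of 5 libraries. The groups overlap in each panel.

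Between single libraries the 10 genes spanned 1.24-fold (P4hb) to 4.28-fold (Lox), and they did not rank the libraries in the same way. The collagen chains Col1a1, Col1a2 and Col3a1, the main substrates, set the scale: Col1a1 was at 564, 147, 103, 569.6 and 487 CPM in ALDHbr libraries 1 to 5, against 533, 168, 409, 815 and 888 CPM in ALDHdim libraries 1 to 5, a span of 8.58-fold. The summed CPM of the 3 chains fell into 2 clusters, 608, 666 and 677 CPM in ALDHbr 2, ALDHbr 3 and ALDHdim 2, and 1615 to 2945 CPM in the other 7 libraries. These 3 libraries were also the 3 lowest for Lox, Loxl1, Loxl2, Serpinh1 and P4hb, 5 of the 10 genes, against 2.48% of all genes tested. For the other 5 (Plod1, Plod2, Plod3, P4ha1 and P4ha2) at least 1 other library was among the 3 lowest, and ALDHdim 2 was the highest of all for P4ha1. This count was made after the values had been seen. ALDHbr 2 and ALDHbr 3 are the libraries of lowest depth and ALDHdim 2 is that of highest depth.

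**Figure D4:**
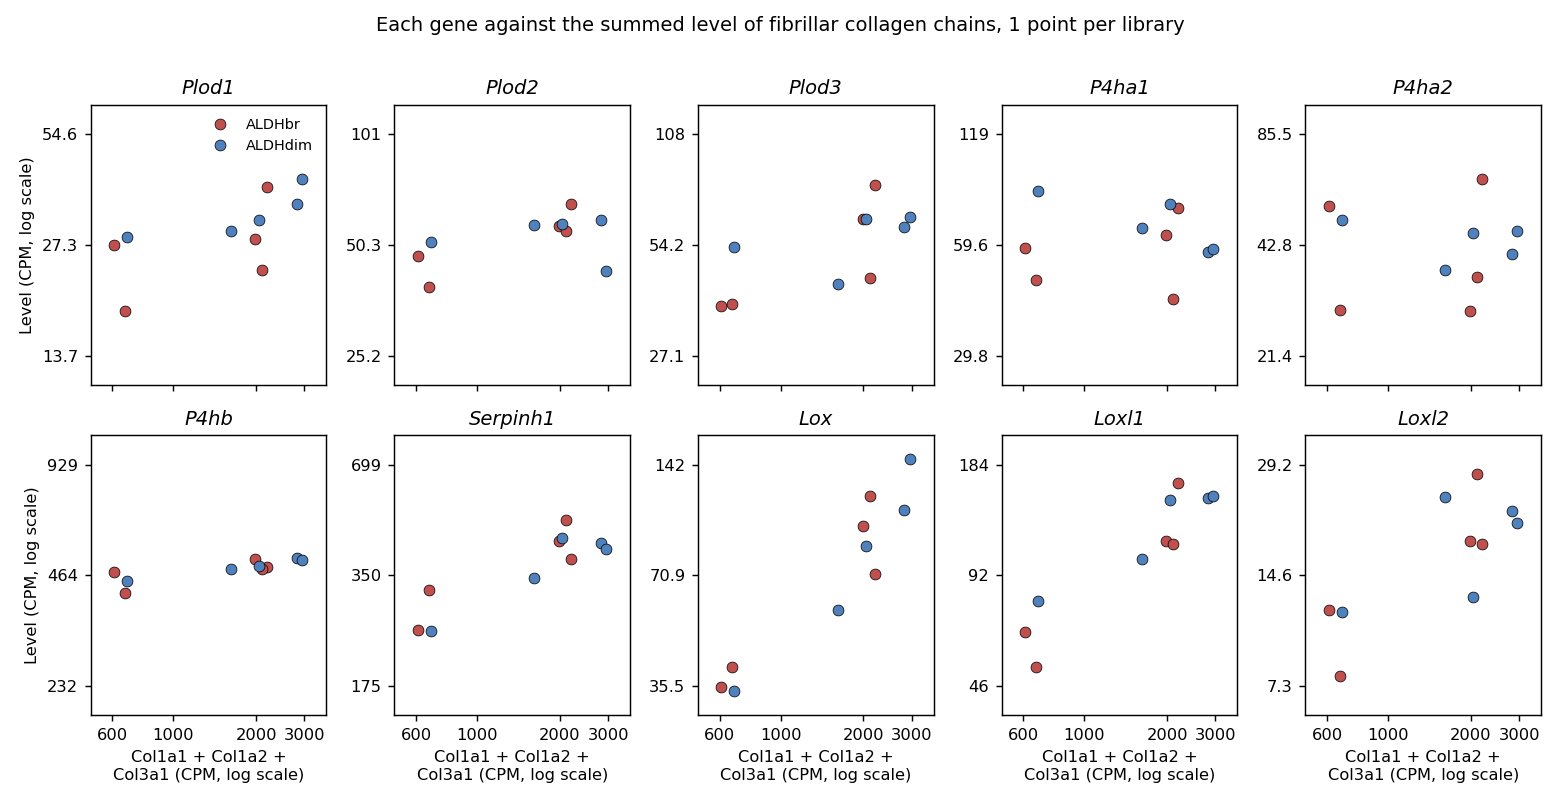
Level of each gene against the summed level of Col1a1, Col1a2 and Col3a1, both in CPM on log axes, with 1 point per library (ALDHbr red, ALDHdim blue); each vertical axis spans the same fold. The 3 libraries at 608 to 677 CPM of collagen stand at the left of each panel; Lox and Loxl1 are lowest in all 3, while P4ha1 and P4ha2 are low in ALDHbr 3 but not in ALDHbr 2 and ALDHdim 2.

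Marker lists of cell types differed among these 3 libraries. The fibroblast list, 8 genes of which Inmt carries most counts, summed to 4868 CPM in ALDHbr 2 and 4351 CPM in ALDHdim 2, the highest values. It was at 2177 CPM in ALDHbr 3, within the 1382 to 3430.1 CPM of the other 7. The myofibroblast list, of which Spp1 carries most counts, was lowest in ALDHbr 2 and ALDHdim 2, at 583 and 855 CPM, while ALDHbr 3 at 2106 CPM lay within the 1358 to 3874 CPM of the other 7. Both sums thus largely follow Inmt and Spp1 and are no measure of how many fibroblasts or myofibroblasts a sample held. Airway epithelial markers were highest in ALDHbr 2 and ALDHdim 2, at 55521 and 41687 CPM, with ALDHbr 3 at 28978 CPM within the 16790.3 to 33109.6 CPM of the other 7. The smooth muscle and endothelial lists were instead lowest of all in ALDHbr 3, at 194 and 752 CPM. They were at 344 and 1107 CPM in ALDHbr 2 and at 430.3 and 1889 CPM in ALDHdim 2, and in the other 7 the lowest were 276 CPM and 814 CPM. The part of cell composition or depth in the levels of the 10 genes was not tested.

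Because of the 2 clusters, the relation to the collagen level was measured within the 7 libraries of higher level alone. There Lox had a Pearson r of 0.79 (exact permutation p = 0.0337, adjusted p = 0.693 over 10841 genes) and a Spearman rho of 0.68 (exact permutation p = 0.110, adjusted p = 0.866). Loxl1 had an r of 0.70 (exact permutation p = 0.0903, adjusted p = 0.753) and a rho of 0.79 (exact permutation p = 0.0480, adjusted p = 0.866). Neither passed the correction, and 0 of 10841 genes did. Without ALDHdim 4 and ALDHdim 5, the 2 libraries farthest from the median level, r was 0.64 for Lox and 0.70 for Loxl1 (exact permutation p = 0.258 and 0.158). Lox was the only 1 of the 10 with a positive r at an unadjusted exact p under 0.05, against 3.27% of all genes. The r of the other 8 ran from −0.46 for Plod2 to 0.65 for P4hb. Without the same 2 libraries r was 0.14 for P4hb, 0.17 for Plod1 (against 0.59 with them), 0.67 for Serpinh1 (against 0.34) and 0.38 for Plod2.

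The 10 genes were not alike in how they ranked the libraries. Likeness of a pair is given as Pearson's r of log2 CPM over the 10 libraries, which share depth and composition, and as a description only. Lox and Serpinh1 were the most alike pair (0.91), and 0.69 within the 7 libraries of higher collagen level. Among the pairs of highest r, Loxl1 paired with Plod3 (0.85, and 0.84 in the 7) and with Plod1 (0.82 and 0.81). Other pairs had lower or opposite values in the 7: Lox and Loxl1 0.80 over 10 and 0.27 in the 7, Loxl1 and Serpinh1 0.73 and 0.057, Loxl2 and P4hb 0.73 and −0.14, and Loxl1 and Loxl2 0.67 and −0.53. P4ha1 and P4ha2 had 0.55 with each other, and with Serpinh1 −0.31 and −0.31. Of the 45 pairs 39 had r above 0, with a median of 0.53 over 10 libraries and 0.095 in the 7, against a median of −0.0013 over all pairs of tested genes in the 10.

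**Figure D5:**
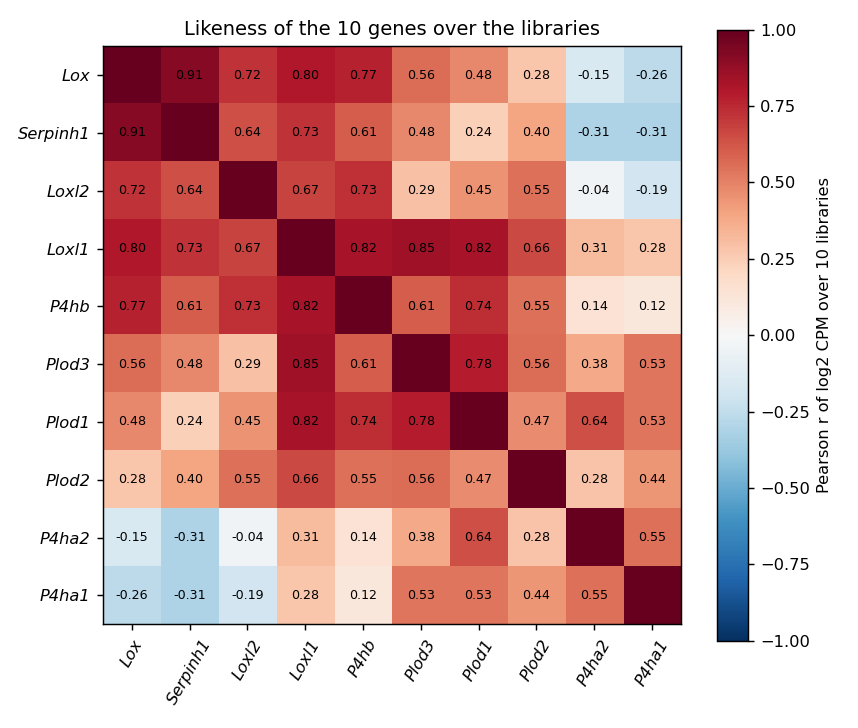
Pearson r of log2 CPM over the 10 libraries for each pair of the 10 genes (red positive, blue negative, scale −1 to 1). The order of the genes was set by hand. Lox, Serpinh1, Loxl2, Loxl1 and P4hb, placed side by side, have values from 0.61 to 0.91 with each other. In the 7 libraries of higher collagen level these run from −0.53 to 0.69. Pairs with genes outside these 5 reach as high, such as Loxl1 with Plod3 (0.85) and Plod1 (0.82), and P4hb with Plod1 (0.74). P4ha1 and P4ha2 stand at or below 0.31 against each of the 5.

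The mean of the 10 genes, each centred on its own mean log2 CPM, was 0.30, −0.31, −0.56, 0.082 and 0.063 in ALDHbr libraries 1 to 5, against 0.16, −0.19, −0.021, 0.22 and 0.26 in ALDHdim libraries 1 to 5. ALDHbr 3 was lowest and ALDHbr 1 highest. Outside the listed genes, the 10 whose log2 CPM was most like this mean over the 10 libraries had r from 0.93 to 0.97. They were Ppan and Cars, of ribosome assembly and tRNA charging, Ube3b, a ubiquitin ligase, Tpp1, a lysosomal peptidase, the semaphorin receptor Plxnb2, the matrix proteoglycan Bgn (biglycan), the actin crosslinker Flna, the TGF-beta receptor Tgfbr2, the laminin receptor Dag1 and the cargo lectin Lman2. Bgn had mean levels of 654 CPM in the ALDHbr libraries and 775 CPM in the ALDHdim libraries (r 0.94, and 0.73 in the 7 libraries of higher collagen level). They were picked as the highest of 10844 genes over 10 libraries, so a high r is no result in itself.

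Neighbouring steps of collagen making held 0 calls with edgeR, of 0% called over all genes. Of other genes that modify or fold collagen, 14 of 18 genes were tested, 10 with lower and 4 with higher estimates in ALDHbr recipients, at a median log2 fold change of −0.11. Creb3l1, a transcription factor of collagen secretion, averaged 18.1 ± 4.44 CPM over the ALDHbr against 25.4 ± 3.23 CPM over the ALDHdim libraries (log2 fold change −0.52, SE 0.20), and Crtap, of the prolyl 3-hydroxylase complex, 31.0 ± 9.74 CPM over the ALDHbr against 23.8 ± 2.82 CPM over the ALDHdim libraries (log2 fold change 0.43, SE 0.21). Both had an adjusted edgeR p of 0.999. Of genes for collagen export and trimming of its ends, 10 of 14 genes were tested, 4 with lower and 6 with higher estimates in ALDHbr recipients, at a median log2 fold change of 0.043. The 2 of smallest p there were Furin, a protease that activates precursors, at −0.22 (SE 0.16) and Klhl12, an adaptor for large transport vesicles, at 0.23 (SE 0.25). Collagen chains had 14 lower and 1 higher estimates among 15 tested of 16 (median −0.30). Those of smallest p were Col18a1 of basement membranes at −0.48 (SE 0.28) and Col14a1 at −0.34 (SE 0.23). Col1a1, Col1a2 and Col3a1 differed by −0.57 (SE 0.58), −0.39 (SE 0.42) and −0.30 (SE 0.50).

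Genes of elastic fibres, whose elastin is the other substrate of lysyl oxidases, had 6 lower and 4 higher estimates among 10 tested (median −0.033). Mfap5, a microfibril protein, differed by 0.16 (SE 0.20) and Emilin1, a glycoprotein at the surface of elastic fibres, by −0.23 (SE 0.30). Chaperones of the endoplasmic reticulum, which share their compartment with P4hb and Serpinh1, had 11 lower and 5 higher estimates among 16 tested (median −0.037). Hsp90b1 averaged 547 ± 36.6 CPM over the ALDHbr against 644 ± 75.7 CPM over the ALDHdim libraries (log2 fold change −0.24, SE 0.13) and Pdia6, a disulfide isomerase, differed by −0.21 (SE 0.12). Genes that hypoxia induces had 8 lower and 4 higher estimates among 12 tested of 15 (median −0.099). Slc2a1, a glucose transporter, averaged 16.2 ± 2.99 CPM over the ALDHbr against 27.1 ± 8.39 CPM over the ALDHdim libraries (log2 fold change −0.70, SE 0.23) with an unadjusted p of 0.0078, and Ankrd37 differed by 0.60 (SE 0.52). In none of these lists did a gene pass the threshold in either direction with edgeR, where every gene had an adjusted p of 0.999.

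On GRCm38 the annotation places Plod1 on chromosome 4 from 147909753 to 147936767, Plod2 on chromosome 9 from 92542223 to 92608428, Plod3 on chromosome 5 from 136987019 to 136996648, P4ha1 on chromosome 10 from 59323296 to 59373304 and P4ha2 on chromosome 11 from 54100095 to 54131665. It places P4hb on chromosome 11 from 120560298 to 120573253, Serpinh1 on chromosome 7 from 99345376 to 99353239, Lox on chromosome 18 from 52516067 to 52529867, Loxl1 on chromosome 9 from 58287738 to 58313186 and Loxl2 on chromosome 14 from 69609068 to 69695834. These are whole protein-coding genes, and counts were summed per gene.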

How the data were processed

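RNA of each sample was reverse transcribed with a barcoded dT primer and then pooled and amplified (BRB-seq, per the labels' protocols), with a molecular identifier (UMI) of 10 nt, a barcode of 9 nt and an insert read of 81 nt. The deposited values are raw counts per gene. The submitters' processing notes list featureCounts 2.0.1, HISAT2 2.2.1, UMI-tools, Trim Galore 0.6.7 and DESeq2, and both GRCm38 and GRCh38 as builds, with no role or order. Not given in the sources used here are the strand setting, the annotation and any collapsing of UMIs. Without collapsing, a count could include PCR copies of 1 molecule. GENCODE M21 (GRCm38) held all 33347 identifiers, each on the same chromosome as in the table.

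Genes were kept by filterByExpr (minimum count 10), which left 10844 genes with 97.3% of counts. TMM scaling and the quasi-likelihood test of edgeR 4.0.16 (R 4.3.3; robust glmQLFit, then glmQLFTest) were applied to all 10 libraries, grouped by title. In simulated data for this comparison, over 10844 genes, 16.7% of changes of 1.5-fold and 64.7% of changes of 2-fold were recovered, and 4.70% of calls were false. These rates are averages over randomly picked genes and not rates for any member gene. Counts were drawn for each gene on its own, so shifts shared by many genes of a library were not simulated. Log2 CPM used a prior count of 2. Shares had exact, two-sided permutation tests. Correlations used permutation, exact over 5040 orders for 7 libraries. The correlation planned over all 10 libraries is not given as r, because the collagen level fell into 2 clusters. DESeq2 1.42.0, limma 3.58.1 (voom), another scaling, no filter, the replicate number as a block and leaving out libraries were alternatives. Plots used matplotlib 3.10.9.

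The members and lists were chosen with earlier results of these data known. The genes named are the 10 members, 3 collagen chains, the 2 non-members of smallest p in each list, and the 10 genes most like the members' mean; others were named after their values were seen.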

Additional observations from a re-analysis of the deposited data

How the results depend on the processing

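The count of 0 among the 10 genes held under every alternative run: DESeq2, DESeq2 size factors, no low-count filter, limma-voom, the replicate block, and leaving out each library or both ALDHbr 3 and ALDHbr 5. Over all genes 0 were called under each of these except without the low-count filter, which called 185 of 33347 (182 higher and 3 lower in ALDHbr recipients) and shifted the median of all genes to 0.22. The estimates of Loxl1, Plod1 and P4ha1 stayed below 0 in all of these, and without ALDHbr 3 and ALDHbr 5 they were −0.083, −0.039 and −0.039. With single libraries left out, the log2 fold change ran over −0.43 to 0.11 for Lox, −0.51 to −0.10 for Loxl1, −0.27 to 0.14 for Loxl2, −0.46 to −0.15 for Plod1, −0.089 to 0.099 for Plod2, −0.29 to 0.025 for Plod3, −0.38 to −0.14 for P4ha1, −0.34 to 0.058 for P4ha2, −0.075 to 0.0061 for P4hb and −0.10 to 0.12 for Serpinh1. The sign turned for Loxl2 with limma-voom (0.077), for Plod2 without the filter (−0.042) and with limma-voom (−0.019), and for Serpinh1 without the filter (−0.036) and with limma-voom (−0.00067). Without both ALDHbr 3 and ALDHbr 5 it turned for Plod3 (0.14), P4ha2 (0.15), P4hb (0.012) and Serpinh1 (−0.059), and the Loxl1 share difference became 1.47 percentage points. With single libraries left out, the share differences ran over 0.81 to 4.64 points for Plod2, 0.62 to 4.99 for P4ha2 and −5.16 to 0.092 for Loxl1. None of these estimates passed the threshold, and the cause of the turned signs was not tested.

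Replicate numbers 1 to 5 occur in both groups, and same-numbered samples deviated together at r = 0.062, 0.37, 0.15, 0.26 and 0.28 for numbers 1 to 5, so not every pair passed 0.1 and they were treated as sharing only a number. With the replicate block 0 genes were called, 0 of them among the 10, 727 genes instead of 402 had an unadjusted p under 0.05, 1 of them among the 10, and Plod2 was at −0.0064. Numbers 2, 3 and 5 were each most like their own number.

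The correlation planned over all 10 libraries called 2 of the 10 genes by Pearson's r (Lox and Loxl1, both positive), against 0.729% of all genes. Spearman's rho called 0 of the 10 and 0% of all genes. By Pearson's r 2 were called without ALDHbr 1, against 0.762% of all genes, and 0 without any other single library. DESeq2 size factors or a prior count of 0.5 gave 2, against 0.692% and 0.729% of all genes. The count was 0 without the filter, with group means subtracted, without ALDHbr 3 and ALDHbr 5, and without the 2 libraries farthest from the median. It was also 0 within the 7 libraries of higher collagen level, a choice made after seeing the data. Why these calls were lost was not tested. Within those 7, r ran over −0.19 to 0.32 for Loxl2, −0.66 to 0.30 for Plod2 and −0.33 to 0.54 for Serpinh1 when each was left out, and without the 2 farthest it was −0.30 for Loxl2 and 0.38 for Plod2. Depth limits Loxl2 and Plod1 most, with 6 and 14 counts in their shallowest library.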

Other observations

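Some further enzymes of the same families, named after their values were seen, were too low for the test. Loxl3 and Loxl4, lysyl oxidases, had 35 and 26 counts over all 10 libraries, and Loxl3 stood at 3.27 ± 1.44 CPM over the ALDHbr against 2.44 ± 1.22 CPM over the ALDHdim libraries (SD, n = 5 each). P3h2, a prolyl 3-hydroxylase, had 14 counts. Ppib, cyclophilin B, which speeds the folding of collagen at prolines, had 37 counts; why it is low was not tested. P4ha3, the remaining alpha subunit of prolyl 4-hydroxylase, passed the filter with 96 counts and averaged 5.28 ± 4.09 CPM over the ALDHbr against 9.01 ± 4.60 CPM over the ALDHdim libraries (log2 fold change −0.70, SE 0.50).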
